A study of Mus musculus with 66 samples.

Results

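E14, a male line of mouse embryonic stem cells, was sequenced with a pair of numbered deletions, GDel1 and GDel2, which share 1 genotype label, a G4 deletion at Praf2. Here GDel2 was compared with GDel1 across all genes, using the 2 RNA libraries of each, which are 4 of the 66 samples of the series. The labels give the same treatment (untreated) and the same medium (DMEM with serum, LIF, a GSK inhibitor and a MEK1/2 inhibitor) for both. Untreated wildtype E14 cells (3 libraries) served as the reference level and lent their spread to the test. Nothing in the labels tells if the numbered deletions are different clones or if the replicates came from separate cultures, so p-values measure the spread between these libraries, which may be technical. The comparison shows how far expression differs between cells described by the same genotype label.

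Guanine-rich DNA can fold into a G-quadruplex (G4), a stack of guanine squares, and such structures often form on the displaced strand of an R-loop, where a new RNA stays paired with its template. CTCF is a zinc finger protein that binds DNA, holds cohesin and anchors chromatin loops, and its sites can lie in promoters, including those of the clustered protocadherins and of imprinted loci. Praf2 belongs to a small family of membrane proteins that bind prenylated Rab GTPases. Embryonic stem cells grown with GSK and MEK inhibitors stay in a naive state, close to the inner cell mass, with low activity of ERK target genes and active Wnt signalling.

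The sequence upstream of 3 genes is shown because Praf2 is the targeted gene and because Myh9 and Plagl1, chosen after their values were seen, lay far from wildtype in GDel1 and differed between the deletions. Each stretch is the 250 bases before the start site in RefSeq's GRCm38.p6, the assembly also called mm10, read 5′ to 3′ along the gene, and capitals mark runs of at least 3 G or 3 C. The Praf2 stretch is chrX:7728321-7728570 on the plus strand, that of Myh9 is chr15:77842176-77842425 on the minus strand, and that of Plagl1 is chr10:13090582-13090831 on the plus strand.
Praf2: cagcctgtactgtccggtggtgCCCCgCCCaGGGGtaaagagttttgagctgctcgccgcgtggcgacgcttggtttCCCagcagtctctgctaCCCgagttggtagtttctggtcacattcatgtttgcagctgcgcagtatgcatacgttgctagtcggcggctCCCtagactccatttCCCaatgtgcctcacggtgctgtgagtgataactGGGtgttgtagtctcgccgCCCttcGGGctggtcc
Myh9: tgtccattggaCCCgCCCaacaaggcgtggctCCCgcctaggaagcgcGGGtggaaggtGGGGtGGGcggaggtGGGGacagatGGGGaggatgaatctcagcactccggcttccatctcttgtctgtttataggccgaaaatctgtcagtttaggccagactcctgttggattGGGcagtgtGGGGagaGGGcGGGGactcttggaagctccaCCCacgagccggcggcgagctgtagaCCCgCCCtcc
Plagl1: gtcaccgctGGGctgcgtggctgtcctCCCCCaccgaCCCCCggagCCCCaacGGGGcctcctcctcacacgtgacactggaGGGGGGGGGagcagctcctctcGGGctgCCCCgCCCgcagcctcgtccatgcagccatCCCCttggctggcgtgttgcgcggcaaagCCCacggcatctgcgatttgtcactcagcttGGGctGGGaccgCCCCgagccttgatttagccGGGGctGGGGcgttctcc
The Praf2 stretch holds 3 runs of G and 7 of C, that of Myh9 9 and 6, and that of Plagl1 8 and 8. A motif of 4 runs of at least 3 G, parted by 1 to 7 bases, was searched on both strands. It was found upstream of Myh9 and not upstream of Praf2 or Plagl1, and 16.7% of 32851 promoter entries of the same length hold it. A match is a description of letters, and the labels do not give the position of the deleted sequence.

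The 7 RNA libraries held 12316853 to 18762704 expected counts each, and 15421 of 55487 genes passed the filter on low counts. Transcripts of the mitochondrial genome took 9.91% and 4.83% of counts in GDel1 replicates 1 and 2, and 6.19% and 9.60% in GDel2 replicates 1 and 2, against 6.30% to 6.89% in wildtype. The median gene lay 0.24 apart (log2) between the GDel1 replicates and 0.19 between the GDel2 replicates, against 0.10 to 0.12 between wildtype libraries. Summed levels of 8 stem cell markers were 3619 to 4226 CPM (counts scaled to a common library size, with TMM factors) in all 7 libraries. Marker sums of other cell types were low but differed between the deletions. Fibroblast feeder markers summed to 0.724 and 0.625 CPM in GDel1, 3.16 and 2.96 CPM in GDel2 and 1.31 to 2.36 CPM in wildtype, with Col3a1, Postn, Dcn and Lum at 0 in the 4 deletion libraries. Primitive endoderm markers summed to 2.17 and 2.60 CPM in GDel1 and to 6.16 and 5.35 CPM in GDel2. Neuroectoderm markers summed to 2.25 and 3.33 CPM and to 6.31 and 7.23 CPM, with Neurog2 at 0, and trophoblast markers to 2.33 and 2.97 CPM and to 1.42 and 0.940 CPM, with Plac1 at 0. Mesendoderm markers summed to 4.996 to 6.44 CPM in wildtype and GDel1 and to 18.9 and 19.8 CPM in GDel2, with Mesp1 at 0. Few of these markers passed the filter: 2 of 8 for feeder, 3 of 8 for primitive endoderm and 3 of 7 for trophoblast. It was 1 of 5 for neuroectoderm and 2 of 5 for mesendoderm. In the deletion libraries most of the neuroectoderm sum was Sox1, of chromosome 8, and most of the mesendoderm sum was Eomes. The part of these cell types in the results was not tested. In bulk RNA, fewer cells of a type and less RNA per cell cannot be told apart.

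Praf2 was low in both deletions and differed between them by a small amount. It stood at 27.5, 28.8 and 30.6 CPM in wildtype, at 10.1 and 9.26 CPM in GDel1 and at 13.1 and 14.1 CPM in GDel2. The groups did not overlap, with every deletion library below wildtype and both GDel2 libraries above both GDel1 libraries. GDel2 was 1.41-fold higher than GDel1 (log2 difference 0.50 ± 0.12 SE, adjusted p = 0.018 with edgeR's quasi-likelihood test). That call was lost without GDel1 replicate 2 (adjusted p = 0.060) or GDel2 replicate 2 (adjusted p = 0.089), with the 4 deletion libraries alone (0.12) and with DESeq2 (0.063). Its relatives were Arl6ip5 on chromosome 6, which rose from 12.96 and 16.8 CPM to 25.2 and 27.0 CPM, and Rabac1, at 29.1 and 25.8 CPM in GDel1 and 25.3 and 25.7 CPM in GDel2.

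Most genes near Praf2 were not called. Of 21 measured genes within 200 kb on chromosome X, 1 was higher in GDel2 (Praf2) and 3 were lower, while over all genes 27.7% were called, 14.8% higher and 12.8% lower. The median difference of the 21 was -0.08, and 19.05% of them were called. Wdr45, an autophagy gene whose annotated end lies 370 bases from Praf2, was at 25.8, 26.6 and 22.9 CPM in wildtype, 27.5 and 21.7 CPM in GDel1, and 13.97 and 13.1 CPM in GDel2. Wildtype and GDel1 overlapped and GDel2 stood apart, 1.81-fold below GDel1 (log2 difference -0.86 ± 0.15, adjusted p = 0.0034 with edgeR). Tfe3, a transcription factor of lysosomal genes 31467 bases away, was at 110, 97.5 and 91.7 CPM in wildtype. It stood at 72.4 and 74.99 CPM in GDel1 and at 50.2 and 46.0 CPM in GDel2, so that the 3 groups were stepped without overlap (GDel2 against GDel1 -0.62 ± 0.11, adjusted p = 0.0045). Ccdc22, part of an endosomal sorting complex, was at 16.2 and 20.5 CPM in GDel1 and at 11.4 and 11.9 CPM in GDel2, against 12.9 to 14.6 CPM in wildtype. Its call (-0.66, adjusted p = 0.012) was lost without GDel2 replicate 1 (0.068) or GDel2 replicate 2 (0.053). With TPM in place of CPM, Wdr45 lay 0.55, Tfe3 0.31 and Ccdc22 0.46 below the median of all genes, and none of the 3 passed. Without GDel1 replicate 1 the counts were 2 higher and 7 lower, and without GDel2 replicate 2 none higher and 2 lower. The other 17 genes were not called, among them Eras, a Ras gene of stem cells, at 4.27 and 5.31 CPM in GDel1 and 7.89 and 6.29 CPM in GDel2 (adjusted p = 0.066).

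**Figure D1:**
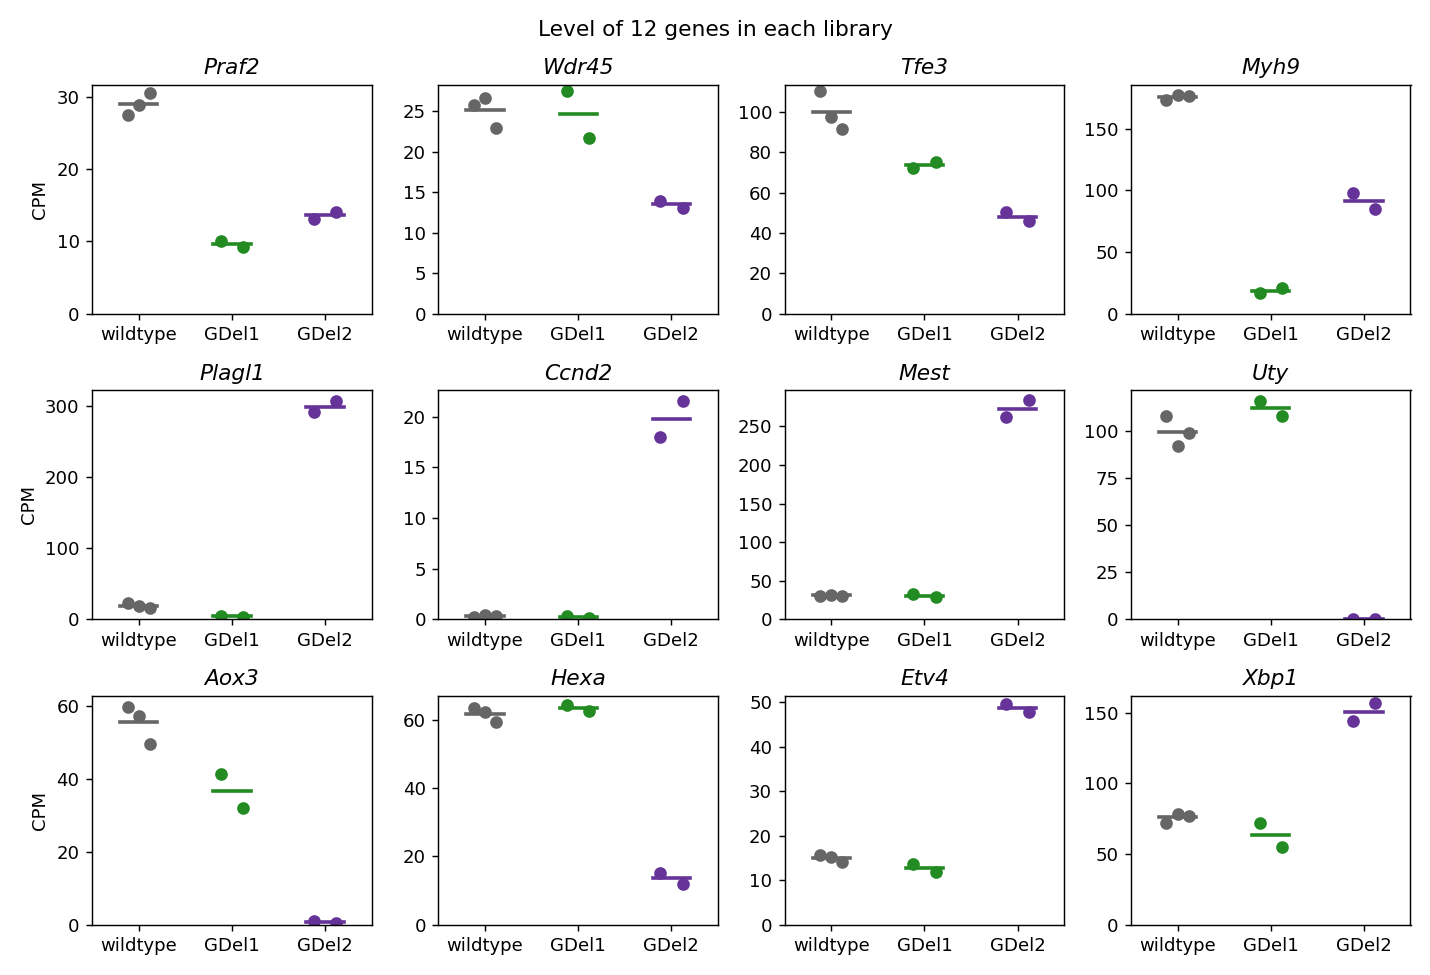
Level of 12 genes in CPM (y axes, linear and starting at 0) in each wildtype, GDel1 and GDel2 library (points), with lines at the group means. Praf2 was low in both deletions, Wdr45 and Hexa were low in GDel2, Myh9 was lowest in GDel1, and Plagl1, Ccnd2, Mest, Etv4 and Xbp1 were highest in GDel2, where Uty had 0 counts.

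Across the genome, GDel2 and GDel1 differed at 4268 of the 15421 genes tested (2289 higher and 1979 lower in GDel2), and 1676 of these, 10.9% of genes tested, were at least 2-fold apart (1011 higher, 6.56%, and 665 lower, 4.31%). The count was 2805 without GDel2 replicate 1, 2602 without GDel2 replicate 2 and 2153 when the spread came from the 4 deletion libraries alone. With log2(TPM + 1) in limma the count was 3747 but its split moved, with 3383 higher and 364 lower, and the median of all genes was 0.24. Genes of small RNAs, which TPM weights by their short length, took 55.0% and 52.0% of TPM in GDel1 and 48.6% and 50.2% in GDel2. The libraries of GDel1 and GDel2 did not overlap at 9109 genes, 59.1% of those tested. Of the genes named below, the calls of Dnmt3b, Gbx2, Col4a2, Gata3, Etv1, Apcdd1, Tnfrsf19, Lefty1, Trp53inp1, Hmgcs1, Suz12, Wapl, Flna, Galnt2 and Rn7s1 were lost with log2(TPM + 1), as were those of Xlr3b, Zfy1, Lef1, Ctsa, Cdkn1c, Dmrt1, Gapdh, Pkm, Pgk1, Rps3, Igf2, Yy1, Sgo1, mt-Nd6 and Malat1. With the 4 deletion libraries alone, those of Nanog, Wnk1, Wapl, Atp5a1, Rbfox2, Gapdh, Pkm, Pgk1, Rps3, Igf2, Yy1, Cbx3, Sgo1, Actg1, mt-Nd6, Ccdc22 and Malat1 were lost.

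At most called genes the wildtype mean was nearer to GDel1 than to GDel2, although the wildtype range often overlapped neither. At 3487 of the 4268 called genes (81.7%) the wildtype mean was nearer to GDel1, and at 781 (18.3%) it was nearer to GDel2. Among all genes tested these shares were 64.1% and 35.9%. Of the 1676 genes at least 2-fold apart, 1487 (88.7%) had wildtype nearer to GDel1. The range of wildtype overlapped that of GDel1 at 2041 of the 4268 called genes (47.8%) and that of GDel2 at 388 (9.09%), against 56.5% and 36.8% of all genes tested. For the 1676 genes these numbers were 890 and 84. The 2 deletions and wildtype share the fit, so these shares describe the levels and are not a test.

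The 15 largest rises in GDel2, among genes that reached 5 CPM there, were of genes at low levels in GDel1. Ccnd2, a D-type cyclin of the entry into S phase, went from 0.322 and 0.104 CPM in GDel1 to 18.0 and 21.5 CPM in GDel2 (log2 difference 6.63 ± 0.34, adjusted p = 1.1e-05), with wildtype at 0.221 to 0.371 CPM. Plagl1, an imprinted zinc finger gene, took opposite sides of wildtype (16.0 to 22.2 CPM), at 5.07 and 2.76 CPM in GDel1 and at 292 and 307 CPM in GDel2 (6.31 ± 0.26, adjusted p = 8.9e-06). Surface and immune receptor genes were among them. Cd180, a relative of Toll-like receptors, rose from 0.161 and 0.416 CPM to 7.73 and 7.23 CPM, Spn, which encodes sialophorin, from 0.402 and 0.364 CPM to 7.89 and 8.17 CPM, the Fc receptor gene Fcgr2b from 0.402 and 0.625 CPM to 8.68 and 8.17 CPM, and Tnfrsf8, which encodes CD30, from 1.53 and 1.41 CPM to 18.9 and 15.5 CPM.

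Transcription factor and matrix genes followed in size. Foxp1, a forkhead factor, rose from 1.53 and 1.82 CPM to 19.6 and 23.3 CPM, and Sox4, an HMG box factor, from 2.90 and 2.13 CPM to 27.1 and 34.5 CPM. Mmp14, a membrane metalloproteinase, rose from 0.724 and 2.03 CPM to 17.8 and 16.9 CPM, and Igfbp7, a secreted binding protein of insulin-like growth factors, from 0.241 and 0.208 CPM to 5.84 and 7.59 CPM. Pramel6 and Pramef17, members of a family of close copies, Nhs, Duox1 and Tmem28 completed the 15, with log2 differences of 3.62 to 3.98. In all 15, wildtype too lay below both GDel2 libraries. That GDel1 did so follows from the rule, which took the largest called rises whose libraries did not overlap. All 15 stayed called when any 1 library was left out, as the largest called differences are likely to.

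The largest falls were of genes on the Y chromosome. Uty, a histone demethylase relative, had 116 and 108 CPM in GDel1 (3522 counts) and 0 counts in GDel2, at least 984-fold lower. Uba1y, a ubiquitin-activating enzyme gene, went from 226 counts to 0, at least 63.1-fold lower. Eif2s3y, a translation factor gene, went from 3128 counts to 1 (2621-fold, 95% Poisson interval 470 to 103543), and the helicase gene Ddx3y from 2946 counts to 4 (617-fold, 241 to 2266). Zfy1 went from 17 counts to 0, at least 4.75-fold lower. Each bound sets the 0 to 3 counts in the group, and bounds and intervals hold counting error only. GDel1 kept Y-linked transcripts near wildtype, with Eif2s3y at 98.0 and 99.4 CPM against 75.8 to 83.01 CPM. Their 8 measured X-linked homologs were not called, with Ddx3x at 738 and 843 CPM in GDel1 and at 676 and 761.8 CPM in GDel2 (adjusted p = 0.38), but 3 of the 8 were lower without GDel1 replicate 2.

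Away from the Y chromosome, several enzyme and receptor genes were among the 15 largest falls. Aox3, an aldehyde oxidase, fell from 41.4 and 32.2 CPM in GDel1 to 0.947 and 0.506 CPM in GDel2, 50.5-fold lower (log2 difference -5.66 ± 0.26, adjusted p = 6.5e-06). Ephx2, a soluble epoxide hydrolase, fell from 40.3 and 59.3 CPM to 3.87 and 2.89 CPM, and D2hgdh, which oxidises D-2-hydroxyglutarate, from 6.12 and 7.18 CPM to 0.552 and 0.289 CPM. Mt2, a metallothionein that binds zinc, fell from 258 and 249 CPM to 21.8 and 22.5 CPM with wildtype at 229 to 246 CPM (-3.52 ± 0.10, adjusted p = 4.1e-07). Ido2, an enzyme of tryptophan breakdown, and Slc16a9, a transporter of the monocarboxylate family, had log2 differences of -3.48 and -3.67. Adgrg6, an adhesion receptor coupled to G proteins, fell from 63.6 and 57.8 CPM to 3.08 and 2.46 CPM, and Ackr3, an atypical chemokine receptor, from 21.3 and 13.5 CPM to 1.66 and 1.59 CPM. Cep112, Nlrp4a and S100a13 had log2 differences of -3.24, -3.24 and -3.19. All 15 falls, the 4 Y-linked genes included, stayed called when any 1 library was left out. They had been chosen as the largest called falls whose libraries did not overlap.

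At a smaller number of genes it was GDel1 that stood far from wildtype. Myh9, a motor gene of the actomyosin cortex, was at 173, 177 and 177 CPM in wildtype, 16.4 and 20.7 CPM in GDel1 and 97.7 and 84.9 CPM in GDel2, so both deletions were below wildtype and GDel1 was lowest (GDel2 against GDel1 2.29 ± 0.13, adjusted p = 1.9e-05). Rbfox2, a splicing factor gene, was at 160 to 164 CPM in wildtype. It stood at 82.3 and 83.4 CPM in GDel1 and at 117 and 107 CPM in GDel2 (adjusted p = 0.0072 with edgeR). The X-linked Xlr family of lymphocyte-regulated genes had 3 of 6 measured members higher in GDel2 and none lower. Xlr3a was at 6.62 to 6.84 CPM in wildtype, 0.402 and 0.052 CPM in GDel1 and 3.24 and 3.61 CPM in GDel2 (adjusted p = 4.7e-04). Xlr4a had 0 counts in GDel1 and 18 in GDel2, at least 7.16-fold higher, and Xlr3b rose by 2.45 on the log2 scale. These genes are near-identical copies among which reads may be split. Galnt2, a glycosyltransferase gene, was highest in GDel1, at 15.6 and 16.7 CPM against 9.86 and 8.53 CPM in GDel2 and 4.58 to 6.51 CPM in wildtype (adjusted p = 0.011). Sytl3, a Rab effector of secretion, was raised in GDel1 alone, at 9.18 and 8.01 CPM against 1.42 and 1.52 CPM in GDel2 and 2.43 to 3.26 CPM in wildtype (adjusted p = 1.5e-04). Rbfox2, Galnt2 and Sytl3 were chosen after their values were seen, and the call of Galnt2 was lost without GDel2 replicate 2 (adjusted p = 0.074).

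Genes of chromosomes 6 and 8 and of part of chromosome 11 were higher in GDel2 as a body. On chromosome 6 the median difference was 0.46, with 315 of 666 genes higher and 33 lower, and on chromosome 8 it was 0.46, with 341 of 723 higher and 29 lower, against a median of -0.01 over all genes. In blocks of 50 neighbouring genes, all 13 blocks of chromosome 6 (0.34 to 0.69) and all 14 of chromosome 8 (0.33 to 0.61) lay above 0.3. On chromosome 11, 6 of the first 7 blocks lay above 0.3, with the first at 0.24. These 7 blocks, 350 genes up to base 61709950, had a median of 0.50 with 172 higher and 12 lower, and the 751 genes beyond had a median of -0.08 with 85 higher and 103 lower. Of 271 blocks, 34 lay above 0.3, and the 1 of these outside those chromosomes was on chromosome 2 (0.51, 28 of 50 higher), next to a block at 0.25 (20 of 50 higher). The 3 blocks under -0.3 were on chromosomes 2 (-0.47), 12 (-0.45) and 17 (-0.36).

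The shift of chromosomes 6 and 8 was in GDel2 and in both of its libraries. Relative to the wildtype mean, the median of their 1389 genes was 0.46 and 0.43 in GDel2 replicates 1 and 2, and -0.01 and -0.03 in the GDel1 replicates. For the first part of chromosome 11 the values were 0.51 and 0.47 in GDel2, and 0.04 and 0.01 in GDel1. Highly expressed examples were Sf3b3, a splicing factor gene of chromosome 8 (614 and 540 CPM in GDel1, 955 and 1001 CPM in GDel2, adjusted p = 0.0011), and Wnk1, a kinase gene of chromosome 6 (643 and 704 CPM, then 1046 and 932 CPM, adjusted p = 0.0069). The call of Wnk1 was lost without GDel2 replicate 1. The counts of higher genes were 219 on chromosome 6 and 244 on chromosome 8 without GDel2 replicate 2, with medians of 0.47 and 0.48. Without GDel2 replicate 1 these counts were 221 and 237. Outside these regions and the Y chromosome, 13676 genes had a median of -0.06 with 1461 higher and 1900 lower.

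**Figure D2:**
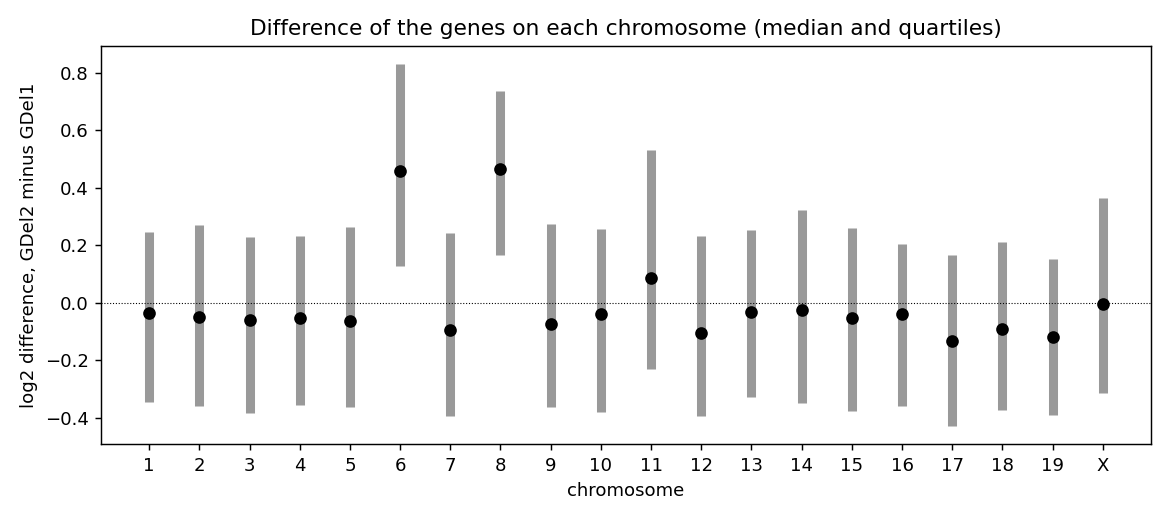
Log2 difference between GDel2 and GDel1 (y axis) of the measured genes on each autosome and chromosome X (x axis), with points at the median and bars from the lower to the upper quartile; chromosome Y, the mitochondrial genome and unplaced genes are not drawn. Chromosomes 6 and 8 had a median of 0.46 and chromosome 11 one of 0.08, while the others lay between -0.13 and -0.01.

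**Figure D3:**
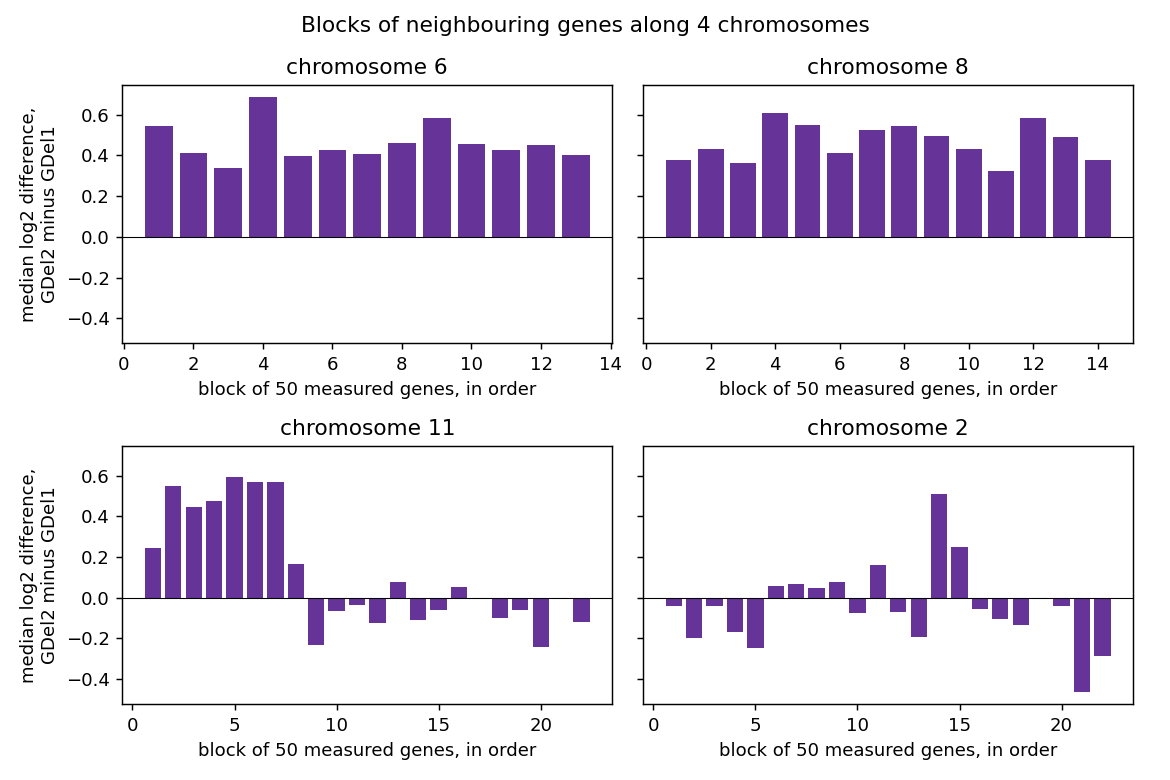
Median log2 difference between GDel2 and GDel1 (y axis) in successive blocks of 50 measured genes (x axis, in order along the chromosome) on chromosomes 6, 8, 11 and 2. All blocks of chromosomes 6 and 8 lay above 0.3, as did 6 of the first 7 of chromosome 11 (0.24 in the first) and 1 of chromosome 2, whose next block was at 0.25.

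Genes of pluripotency kept high levels in both deletions while members of the naive and formative sets moved both ways. Of 25 naive genes, 7 were higher, 5 were lower and 13 were not called (median -0.07). Their share called was 48.0%, against 27.7% over all genes. Zfp42, a classic marker also called Rex1, rose from 200 and 220 CPM to 357 and 397 CPM (adjusted p = 5.3e-04), and Nanog, on chromosome 6, from 1023 and 918 CPM to 1405 and 1354 CPM (adjusted p = 0.0060). Dppa5a, an RNA-binding protein gene of the early embryo, fell from 791 and 1244 CPM to 399 and 354 CPM (adjusted p = 0.0012), and Gbx2, a homeobox gene, from 17.8 and 14.8 CPM to 8.36 and 8.17 CPM (adjusted p = 0.0043). Pou5f1, which encodes OCT4, was at 436 and 493 CPM in GDel1 and 402 and 386 CPM in GDel2 (adjusted p = 0.10). Lower calls numbered 3 without wildtype replicate 3, 2 without GDel2 replicate 2, and 8 without GDel1 replicate 1.

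In the formative and primed set, 13 of 15 measured genes were called, 6 higher and 7 lower. This was a share of 86.7%, against 27.7% over all genes. Etv4, an ETS factor, rose from 13.6 and 11.9 CPM to 49.6 and 47.8 CPM (1.94 ± 0.12, adjusted p = 2.9e-05), and Zic2, a zinc finger factor, from 12.9 and 12.02 CPM to 39.0 and 34.8 CPM (adjusted p = 7.1e-05). The de novo DNA methyltransferases parted, with Dnmt3a rising from 32.6 and 36.3 CPM to 59.7 and 61.5 CPM and Dnmt3b falling from 76.8 and 84.4 CPM to 41.3 and 42.1 CPM (adjusted p = 7.4e-04 and 2.7e-04). Fzd7, a Wnt receptor gene, fell from 61.7 and 68.2 CPM to 27.1 and 26.8 CPM (adjusted p = 7.2e-05). Lower calls numbered 3 without GDel2 replicate 2, and higher ones 4 without GDel2 replicate 1.

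Genes of the 2-cell-like state, a rare state that recalls the embryo at genome activation, were higher in GDel2 nearly throughout: 13 of 14 measured genes were called higher, none lower, with a median of 4.40 (4.27 with genes at 0 set to their bound). All were at low levels. The share called was 92.9%, against 27.7% over all genes. The list has 33 members, of which 14 passed the filter on low counts. Members near 0 in GDel1 could pass only through other libraries, so the count and the median are in part set by the filter. Zscan4f was at 0.402 and 0.781 CPM in GDel1 and 4.81 and 4.63 CPM in GDel2 (2.91 ± 0.34, adjusted p = 5.2e-04), and wildtype was at 0.840 to 1.30 CPM. Zscan4d rose from 5 counts to 99 and Gm8300 from 3 counts to 61, and Zscan4b went from 0 counts to 46, at least 18.3-fold higher, a call lost without GDel2 replicate 1. The set consists of close copies (Zscan4, Usp17l and Gm families), among which reads may be split, and none lies on chromosomes 6 or 8 or the first part of 11.

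Some lineage genes rose in GDel2, several of them from low levels. Of 9 neuroectoderm genes 5 rose, among them Tubb3, a neuronal tubulin, from 38.4 and 41.1 CPM to 81.6 and 85.4 CPM (adjusted p = 1.3e-04), and Sox1 from 2.17 and 3.23 CPM to 5.997 and 6.36 CPM (0.0083). Both lie on chromosome 8. Sox21 fell from 9.26 and 7.65 CPM to 1.26 and 0.940 CPM (adjusted p = 1.0e-04). Eomes, a T-box factor of mesendoderm, rose from 4.19 and 3.64 CPM to 17.8 and 16.0 CPM (2.12 ± 0.17, adjusted p = 7.8e-05), and Mesp2 rose from 4 counts to 34. The 3 primitive endoderm genes on chromosomes 6, 8 or the first part of 11 were all called higher. Elsewhere 2 of 7 were, with a median of 0.36. Of all 10 primitive endoderm genes 5 rose and none fell, led by the collagen genes Col4a1 and Col4a2 of chromosome 8 (2.56 and 1.87 on the log2 scale). The number was 3 without either GDel2 replicate. Of 11 trophoblast genes 2 rose, Peg10 (1.05) and Tead4 (0.53, a call lost without GDel2 replicate 1), and 3 fell, with Krt8 (0.70) and Esx1 (1.17) not called. The falls were of Tfap2c (-0.76, lost without GDel1 replicate 2 or GDel2 replicate 2) and of the factors Gata2 and Gata3 (log2 differences of -1.85 and -2.48, adjusted p = 0.0014 and 0.0049).

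Germline genes were more often higher than lower, 11 against 3 of 19 measured, with a median of 0.86. The share called was 73.7%, against 27.7% over all genes. The list has 24 members, and those near 0 in GDel1 could pass the filter on low counts only through other libraries. Dazl, a translation regulator of germ cells, rose from 7.003 and 5.62 CPM to 18.7 and 20.1 CPM (adjusted p = 2.4e-04). Stra8, a gene of meiotic entry, rose from 7 counts to 84, Mov10l1, a helicase of the piRNA pathway, from 1.21 and 0.677 CPM to 4.73 and 6.14 CPM, and Ddx4 from 3.14 and 4.42 CPM to 8.76 and 8.75 CPM. Tdrd12, another piRNA gene, went the other way, from 42.9 and 46.8 CPM to 14.4 and 12.7 CPM (-1.73 ± 0.11, adjusted p = 3.7e-05), as did Dmrt1 (-1.23, adjusted p = 0.0049). Of the 11 rises, 10 lay outside chromosomes 6, 8 and the first part of 11.

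Imprinted genes were counted by the parental copy they are known to be expressed from. Of 20 measured genes expressed from the paternal copy, 11 were higher and 1 lower (median 0.86). Of 16 expressed from the maternal copy, 5 were higher and 4 lower (median -0.13). The shares called were 60.0% (paternal) and 56.25% (maternal), against 27.7% over all genes. The lists have 27 and 18 members. Those near 0 in GDel1, such as Nnat and H19, could pass the filter on low counts only through other libraries. The counts and shares are thus in part set by the filter. Mest, a hydrolase gene of chromosome 6, rose from 32.4 and 28.1 CPM to 262 and 284 CPM, 9.03-fold (adjusted p = 8.7e-07). Peg3 rose from 63.8 and 63.6 CPM to 117 and 121 CPM, Snrpn from 38.0 and 35.4 CPM to 75.3 and 79.9 CPM, and Sfmbt2 from 46.5 and 38.4 CPM to 98.0 and 98.2 CPM. Nnat had 1 count in GDel1 and 95 in GDel2 (113-fold, 95% Poisson interval 19.9 to 4525), and 0 in the wildtype libraries. Peg10 was low in GDel1, at 65.6 and 61.3 CPM against 154 and 109 CPM in GDel2 and 136 to 146 CPM in wildtype.

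At the Dlk1-Meg3 locus of chromosome 12, the maternally expressed non-coding RNAs rose together, Meg3 from 102 and 133 CPM to 299 and 250 CPM, Rian from 641 and 534 CPM to 1076 and 1286 CPM and Mirg from 53.5 and 44.1 CPM to 91.4 and 97.2 CPM (adjusted p = 4.6e-04, 8.1e-04 and 5.6e-04). The paternally expressed Dlk1 rose as well, from 4 counts to 26 (log2 difference 2.90, adjusted p = 0.028 with edgeR). At the H19-Igf2 locus of chromosome 7, whose control region binds CTCF, the maternally expressed H19 went from 0 counts to 80, at least 31.8-fold higher, while the paternally expressed Igf2 fell from 72 counts to 24 (-1.36, adjusted p = 0.012). The call of Igf2 was lost without either GDel2 replicate. Grb10 fell from 72.1 and 74.6 CPM to 34.9 and 37.2 CPM (adjusted p = 2.0e-04), and Cdkn1c and Phlda2, growth inhibitors of 1 domain on chromosome 7, fell (log2 differences of -1.55 and -1.79, adjusted p = 0.0047 and 0.0026).

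The clustered protocadherins, adhesion genes chosen by promoters that bind CTCF, were measured only in the gamma cluster of chromosome 18. The list has 58 members, of which 22 passed the filter on low counts. Over all genes 27.7% were called and 14.8% were higher, against 59.1% called in this list and 44.4% in the Hox list below. Of 22 genes, 13 were higher in GDel2 and none lower, with a median of 0.92. All 13 belonged to the A and B types: Pcdhga8 rose from 2.58 and 4.27 CPM to 12.3 and 12.6 CPM (1.83 ± 0.25, adjusted p = 0.0012), Pcdhga5 from 2.74 and 2.24 CPM to 8.29 and 6.94 CPM and Pcdhgb5 from 2.33 and 2.24 CPM to 7.34 and 7.88 CPM. Pcdhgc3, Pcdhgc4 and Pcdhgc5 at the end of the cluster had log2 differences of -0.19, 0.00 and -0.04 and were not called. Relative to the wildtype mean, the median of the 22 genes was -0.35 and -0.31 in the GDel1 libraries and 0.67 and 0.51 in the GDel2 libraries. These genes share their last exons, so counts may be split among them. The number higher was 9 without either GDel2 replicate. Hox genes were near the limit of detection, and 4 of 9 rose, such as Hoxd13 from 0.402 and 0.416 CPM to 3.39 and 2.89 CPM (adjusted p = 4.4e-04). The list has 39 members, and those near 0 in GDel1 could pass the filter on low counts only through other libraries. The calls of Hoxa7 and Hoxc10 were lost without GDel2 replicate 1, and those of Hoxa7 and Hoxc11 without GDel2 replicate 2.

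**Figure D4:**
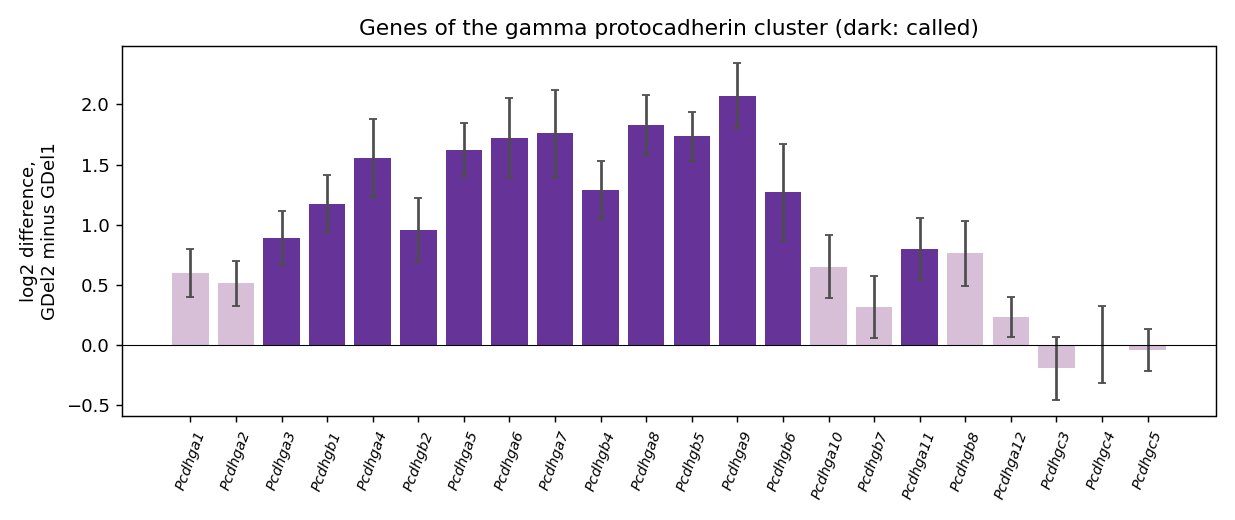
Log2 difference between GDel2 and GDel1 (y axis, bars with standard errors) of the 22 measured gamma protocadherin genes in their order along the cluster (x axis), dark where called. Of these, 13 genes of the A and B types were called higher, and the 3 C-type genes at the right lay between -0.19 and 0.00.

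Among signalling genes, 8 of 16 measured genes that respond to ERK were higher in GDel2, with a median of 0.82. Of the others, 1 was lower and 7 were not called. The share called was 56.25%, while over all genes 27.7% were called and 14.8% were higher. Of the 8 rises, 1 lay on chromosomes 6, 8 or the first part of 11. Both deletions grew with a MEK inhibitor. Spry4 and Spred2, feedback inhibitors of the pathway, rose from 10.3 and 17.1 CPM to 43.7 and 29.999 CPM and from 55.0 and 51.6 CPM to 122 and 103 CPM (adjusted p = 0.0055 and 2.2e-04). Myc rose from 5.96 and 7.03 CPM to 19.2 and 13.1 CPM (adjusted p = 0.0021). Etv1 fell from 76.8 and 77.3 CPM to 29.8 and 38.7 CPM (adjusted p = 3.8e-04), and Dusp6, an ERK phosphatase, was at 12.6 and 12.4 CPM in GDel1 and at 12.5 and 12.7 CPM in GDel2. The number higher was 5 without either GDel2 replicate and with the 4 deletion libraries alone, and the number lower was 2 without GDel1 replicate 1.

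Wnt targets were divided, with 3 higher and 6 lower of 13 (median -0.45). Apcdd1, a Wnt inhibitor, fell from 27.4 and 23.5 CPM to 11.8 and 10.3 CPM (adjusted p = 4.6e-04), Tnfrsf19 from 17.7 and 13.3 CPM to 6.94 and 7.52 CPM and Lef1 from 42 counts to 5. Znrf3, a ligase that removes Wnt receptors, rose from 38.6 and 35.9 CPM to 63.4 and 56.5 CPM (adjusted p = 0.0020) and Ccnd1 from 103 and 97.3 CPM to 149 and 149 CPM (0.0020). Lower calls numbered 4 without wildtype replicate 2 or GDel1 replicate 2, and 3 without GDel2 replicate 2. Of 25 genes of Nodal and BMP signalling 5 rose and 6 fell, the latter 3 without GDel2 replicate 1. Bmp4 rose from 4.99 and 6.45 CPM to 17.7 and 13.5 CPM (adjusted p = 0.0013) and Inhbb from 6.52 and 8.95 CPM to 24.8 and 23.9 CPM (3.5e-04), and Lefty1, a Nodal inhibitor, fell from 37.3 and 38.4 CPM to 22.3 and 22.8 CPM (9.8e-04). Targets of p53 had 7 lower and 1 higher of 21 (median -0.27), such as Trp53inp1, at 479 and 330 CPM in GDel1 and 203 and 237 CPM in GDel2 (adjusted p = 0.0053). The 1 higher call was lost without GDel2 replicate 2. Cdkn1a, which encodes p21, was at 40.1 and 49.8 CPM and at 42.1 and 37.1 CPM (adjusted p = 0.32). Interferon response genes had 4 higher and 3 lower of 12 (58.3% called). Cyclins with their inhibitors had 4 higher and 4 lower of 25 (32.0%), of which 2 were lower without either GDel2 replicate. Over all genes 27.7% were called, and the share was 69.2% for Wnt targets, 44.0% for Nodal and BMP genes and 38.1% for p53 targets.

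Genes of the integrated stress and endoplasmic reticulum responses were higher in GDel2 at 13 of 21 measured members and lower at 1. The median was 0.69. The share called was 66.7%, while over all genes 27.7% were called and 14.8% were higher. Xbp1, a transcription factor of the unfolded protein response, rose from 72.2 and 54.6 CPM to 144 and 157 CPM (1.25 ± 0.13, adjusted p = 3.5e-04). Herpud1, a gene of protein disposal, rose from 5.55 and 6.09 CPM to 17.3 and 18.0 CPM (2.2e-04). The serine synthesis genes Psat1 and Phgdh rose from 238 and 213 CPM to 426 and 483 CPM and from 37.8 and 39.2 CPM to 68.2 and 69.9 CPM (2.7e-04 and 9.1e-04). Ddit3, which encodes CHOP, and the chaperone gene Hspa5 were not called, the latter at 391 and 459 CPM in GDel1 and 348 and 367 CPM in GDel2. Of the 13 rises, 6 lay on chromosomes 6, 8 or the first part of 11, where all 6 measured members were higher. The median of the 15 members elsewhere was 0.34, and the part of these chromosomes in the result was not tested.

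Lysosomal genes were lower in GDel2, at 14 of 29 members against 2 higher, with a median of -0.43. Hexa, a subunit of beta-hexosaminidase, fell from 64.5 and 62.6 CPM to 15.1 and 12.1 CPM with wildtype at 59.4 to 63.6 CPM (-2.23 ± 0.12, adjusted p = 1.7e-05). The cathepsin genes Ctsa and Ctsl fell from 104 and 109 CPM to 53.4 and 53.9 CPM and from 82.8 and 111 CPM to 45.0 and 44.7 CPM (1.5e-04 and 6.6e-04). Rragd, a GTPase gene of nutrient sensing, fell from 67.5 and 60.9 CPM to 26.9 and 26.5 CPM (8.0e-05) and Tpp1, a lysosomal peptidase, from 128 and 110 CPM to 71.6 and 71.1 CPM (0.0011). Mitf, a relative of Tfe3 on chromosome 6, rose from 74.2 and 60.6 CPM to 140 and 162 CPM (3.0e-04). The number higher was 1 in 6 of the 7 fits with 1 library left out. The number lower was 11 to 16 when 1 library was left out and 8 with the 4 deletion libraries alone. With TPM scaling the median of the list lay 0.26 below that of all genes, and Tpp1 and Rragd no longer passed. Autophagy genes had 5 higher and 4 lower of 29, a share called of 31.0%, near the 27.7% over all genes. It was 55.2% for the lysosomal list. Without GDel1 replicate 2 or either GDel2 replicate, 3 autophagy genes were higher.

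In cholesterol synthesis, 4 of 24 rose and 4 fell, a share called of 33.3% against 27.7% over all genes, with a median of 0.00 (log2): Sqle, which makes squalene epoxide, fell from 202 and 192 CPM to 103 and 107 CPM (adjusted p = 2.0e-04) and Hmgcs1 from 374 and 406 CPM to 233 and 254 CPM (0.0016), while Dhcr7 rose from 66.6 and 59.3 CPM to 111 and 93.2 CPM (0.0024). Without GDel1 replicate 1, 8 of the list were lower. In hypoxia and glycolysis 6 of 25 rose and 6 fell, a share called of 48.0%. Gapdh of chromosome 6 rose from 1110 and 1120 CPM to 1491 and 1544 CPM (0.013), and Pkm fell from 1928 and 1941 CPM to 1467 and 1413 CPM (0.012), and both calls were lost without GDel2 replicate 2. Pgk1 fell from 943 and 904 CPM to 664 and 703 CPM (0.014), a call lost without GDel2 replicate 1. The number higher was 3 without either GDel2 replicate, and the number lower was 3 without GDel2 replicate 2.

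Factors of chromatin and of nucleic acid structure differed at a minority of genes. Of 25 factors of CTCF, ADNP and cohesin, 3 were higher and 3 lower, close to the background over all genes. Ctcf was at 197 and 166 CPM in GDel1 and 222 and 224 CPM in GDel2 (adjusted p = 0.063), and Rad21, a cohesin subunit, at 340 and 356 CPM and 322 and 318 CPM (0.32). Wapl, which releases cohesin from DNA, fell from 382 and 416 CPM to 261 and 296 CPM (0.0058), and Stag3, a cohesin subunit of meiosis, rose from 10.7 and 13.3 CPM to 33.1 and 25.9 CPM (7.4e-04). Yy1 was no longer called when GDel2 replicate 2 was left out, Cbx3 in 5 and Sgo1 in 6 of the 7 fits with 1 library left out. The number higher was 1 without any 1 wildtype replicate and 6 without GDel1 replicate 1, and the number lower was 2 without any 1 wildtype or GDel2 replicate.

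Factors of R-loops and G-quadruplexes had 7 higher and 6 lower of 35, a share called of 37.1% against 27.7% over all genes. Top3b, a topoisomerase, fell from 71.6 and 76.6 CPM to 53.5 and 49.3 CPM (adjusted p = 0.0062 with edgeR). Rtel1, a helicase that opens G-quadruplexes, fell from 121 and 134 CPM to 86.4 and 84.9 CPM (0.0025). Fancd2, a gene of crosslink repair on chromosome 6, rose from 122 and 105 CPM to 186 and 187 CPM (0.0011). Of the 7 rises, 5 lay on chromosomes 6, 8 or the first part of 11, and elsewhere 2 of 29 members were higher, against 10.7% of the genes there. With TPM scaling Top3b and Rtel1 no longer passed. The number higher was 3 without GDel2 replicate 2 and 4 without wildtype replicate 3, and the number lower was 11 without GDel1 replicate 1.

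Polycomb genes had 5 higher and 4 lower of 28, a share called of 32.1%, near the 27.7% over all genes. Ezh2, the methyltransferase of the PRC2 complex, on chromosome 6, rose from 133 and 133 CPM to 203 and 231 CPM (adjusted p = 0.0013), and Suz12, another core member, fell from 675 and 621 CPM to 338 and 358 CPM (-0.89 ± 0.10, 3.4e-04). Among 17 genes of DNA methylation 4 were higher and 4 lower, a share called of 47.1%. The demethylating dioxygenase genes Tet2 and Tet3 rose from 489 and 463 CPM to 769 and 786 CPM and from 3.94 and 5.98 CPM to 24.8 and 18.7 CPM (9.8e-04 and 3.9e-04). Lower calls numbered 2 in Polycomb without GDel1 replicate 2 or GDel2 replicate 2, and 2 in DNA methylation without wildtype replicate 3 or either GDel2 replicate.

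Adhesion and cytoskeletal genes moved both ways, more of them lower. Of 18 genes of cadherins and epithelial adhesion 2 rose and 6 fell. Over all genes 27.7% were called, against 44.4% of these, 37.5% of the actomyosin list and 47.6% of the matrix list. Cdh1, the E-cadherin gene of chromosome 8, rose from 273 and 272 CPM to 491 and 445 CPM (adjusted p = 5.0e-04), and Cdh2, the N-cadherin gene, fell from 15.6 and 12.4 CPM to 2.92 and 2.82 CPM (-2.28 ± 0.18, 7.2e-05). Dsg2, a desmosomal cadherin, fell from 184 and 157 CPM to 75.1 and 73.7 CPM (1.2e-04). In the actomyosin list 7 of 24 fell, such as Flna, an actin crosslinker, from 554 and 615 CPM to 358 and 332 CPM (8.6e-04), and 2 rose, Myh9 and Actg1. The call of Actg1 was lost in 5 of the 7 fits with 1 library left out. Matrix genes had 6 higher and 4 lower of 21. The integrin genes went both ways, Itga5 rising from 22.1 and 30.1 CPM to 66.4 and 57.8 CPM (6.0e-04) and Itgb5 falling from 54.7 and 52.9 CPM to 12.6 and 13.4 CPM (9.5e-06). The number lower was 3 without GDel2 replicate 1 in cadherins and 3 without GDel2 replicate 2 in actomyosin, and without GDel1 replicate 1 actomyosin had 5 higher and 11 lower.

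Some genes of the translation and respiration machinery were lower in GDel2 by small amounts, and most were not called. Of 85 cytosolic ribosomal protein genes, which have many processed copies, 32 were lower and none higher, with a median of -0.37. Of 81 nuclear-encoded respiratory chain genes, 22 were lower and 1 higher, with a median of -0.30. Over all genes 27.7% were called and 12.8% were lower, while 37.6% of the ribosomal and 28.4% of the respiratory list were called. By library, the ribosomal protein median against wildtype was 0.33 and 0.48 in GDel1 and 0.04 and 0.06 in GDel2, so the libraries away from wildtype were those of GDel1. Examples were Rps3, at 623 and 686 CPM in GDel1 and 490 and 517 CPM in GDel2 (-0.38, adjusted p = 0.021), and Atp5a1, an ATP synthase subunit, at 1014 and 1038 CPM and 738 and 727 CPM (-0.49, 0.0056). The call of Rps3 was lost when wildtype replicate 2 (0.055), GDel2 replicate 1 (0.090) or GDel2 replicate 2 (0.058) was left out. The number of ribosomal protein genes lower was 19 when wildtype replicate 2 was left out, 13 and 12 when the GDel2 replicates 1 and 2 were, 55 when GDel1 replicate 1 was, and 9 with the 4 deletion libraries alone. For respiratory genes it was 10 without either GDel2 replicate, 42 without GDel1 replicate 1 and 5 with the 4 deletion libraries alone, a fit that called 875 of 14832 genes lower. Relative to all genes the ribosomal protein median was -0.23 under log2(TPM + 1), and Atp5a1 was at 0.12 there before that shift was taken off and was not called.

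The mitochondrial share split each pair of replicates, and the genes of the mitochondrial genome moved with it. Their median difference was -0.18, with 2 of 16 lower, but it was 0.38 without GDel1 replicate 1 and -0.55 without GDel1 replicate 2. Only mt-Nd3 (142 and 198 CPM in GDel1, 57.2 and 74.0 CPM in GDel2, adjusted p = 0.0017) and mt-Nd6 were called, and mt-Nd6, at 44.1 and 209 CPM in GDel1, lost its call in 5 of the 7 fits with 1 library left out. Replication-dependent histone genes, transcripts without a poly(A) tail that supply newly made DNA, had 2 higher and none lower of 67. Without GDel1 replicate 1 they had 11 higher and 24 lower, and without GDel2 replicate 2 none of either. Rn7s1, an RNA of the signal recognition particle, was raised in GDel1, at 3551 and 4690 CPM against 2186 and 2318 CPM in GDel2 and 1797 to 2081 CPM in wildtype (-0.87 ± 0.15, adjusted p = 0.0032). Malat1, a nuclear RNA, was lower in GDel2, at 2776 and 2869 CPM against 3703 and 3906 CPM in GDel1 and 3471 to 3586 CPM in wildtype, a call (adjusted p = 0.015) lost without wildtype replicate 2 or either GDel2 replicate.

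**Figure D5:**
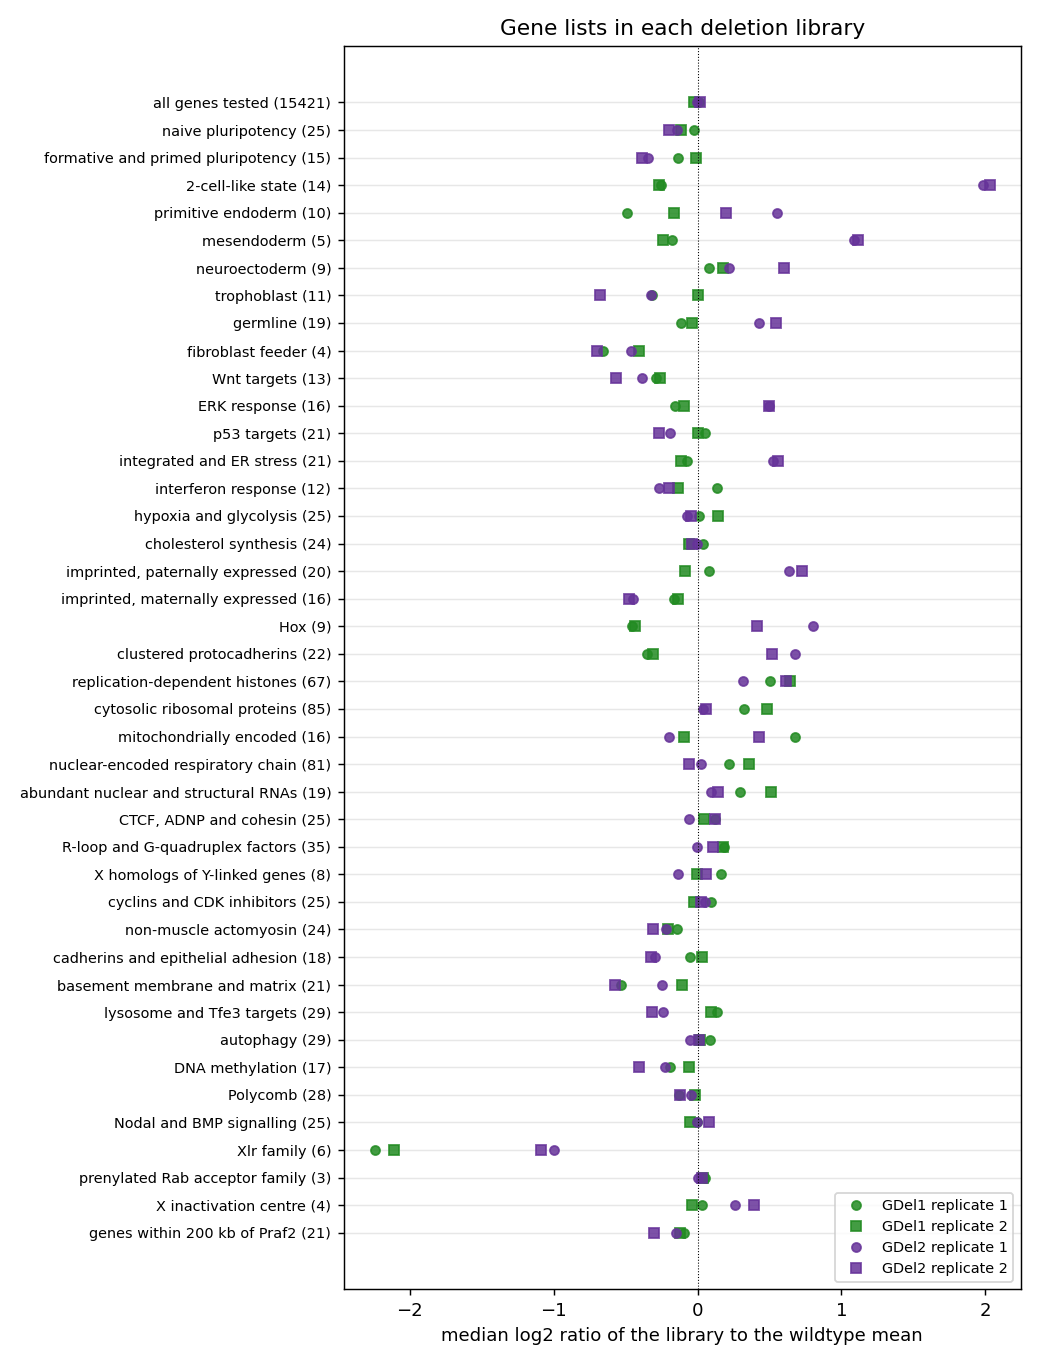
Median log2 ratio of each deletion library to the wildtype mean (x axis) for all genes, 40 gene lists and the neighbours of Praf2 (y axis, with the number of measured genes), green for GDel1 and purple for GDel2, circles for replicate 1 and squares for replicate 2; Y-linked genes are not drawn. The 2-cell-like, stress, ERK and protocadherin lists had both GDel2 libraries to the right of both GDel1 libraries, the lysosomal list had them to the left, and the mitochondrially encoded list separated replicates and not deletions.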

How the data were processed

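Total RNA, with ribosomal RNA removed, was prepared with a kit that marks the strand, per the labels' protocols. The submitters' processing notes name STAR, RSEM and mm10. For the strand setting of the counting, and for the annotation release, the value is not given in the sources. The authors deposited an expected count, TPM and FPKM per gene and library, and FPKM was not used. Expected counts were rounded. Genes with at least 10 counts in enough libraries were kept (filterByExpr, total of at least 15). All 7 libraries in 3 groups were fitted with edgeR 4.0.16 (TMM, robust quasi-likelihood) in R 4.3.3, and GDel2 was contrasted with GDel1, with Benjamini-Hochberg adjustment over 15421 genes and a threshold of 0.05. A gene is called, or is said to have risen or fallen, when past it. Standard errors were derived from the F statistic. Alternatives used DESeq2 1.42.0, limma 3.58.1 on log2 TPM, other filters and scalings, fewer libraries and a replicate block.

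Symbols were given for 55141 of 55487 gene identifiers and positions for 38589, the latter from the RefSeq GRCm38.p6 tables. In simulated counts for 14815 genes, 48.7% of the genes set 2-fold apart were recovered and 7.07% of calls were false. The genes named were Praf2 and its neighbours within 200 kb, the 15 largest rises and 15 largest falls (at least 5 CPM in the higher group, no overlap, established symbol), up to 4 called members of highest level per list, and 3 genes per chromosome whose median lay over 0.2 from that of all genes. The gene lists and comparisons were chosen with earlier results of these data known. Other members of the lists that are named, Rbfox2, Galnt2, Sytl3, the boundary on chromosome 11 and the promoters shown were chosen after values were seen. The other samples of the series were not analysed here.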

Additional observations from a re-analysis of the deposited data

How the results depend on the processing

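The number of genes called was 4268. It was 3368 to 5417 with RLE size factors, DESeq2, other filters on low counts, TPM or mitochondrial genes left out. It was 2153 with the 4 deletion libraries only, and 2602 to 5617 when 1 library was left out (5617 without GDel1 replicate 1, 2805 and 2602 without GDel2 replicates 1 and 2). Praf2 kept its direction, at 0.43 to 0.55 when 1 library was left out, 0.49 with the 4 deletion libraries only and 0.49 with DESeq2, and was not called in the last 2. Of 171 named genes called, 119 were called in every fit with 1 library left out and 73 in every planned fit. Libraries chosen after seeing the data by mitochondrial share, 1 per deletion, gave 4908 (highest) and 5908 (lowest) calls.

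With TPM, where the median of all genes was 0.24 with a pseudocount of 1 and 0.36 with 0.1, 12 named genes changed sign, and the cause was not tested. Their differences with pseudocounts of 1 and 0.1 were 0.12 and 0.12 for Atp5a1, 0.13 and 0.13 for Atp5b, 0.16 and 0.16 for Atp5f1, 0.082 and 0.084 for Cdk2, 0.0031 and 0.0031 for Ctsd, and 0.31 and 0.32 for Fancm. They were 0.021 and 0.022 for Nodal, 0.0090 and 0.0090 for Pkm, 0.20 and 0.20 for Rbbp4, 0.28 and 0.28 for Rpl4, 0.048 and 0.050 for Sgo1, and 0.23 and 0.24 for Yy1.

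Replicate numbers did not pair the libraries (correlation of deviations -0.37 between same-numbered libraries). With a replicate block the count was 2235 with 3 groups and 1729 with the 4 deletion libraries only, and Praf2 was at 0.50 and 0.49, not called in either. With the pairing crossed, an alternative chosen after seeing the data, 3651 genes were called, and Praf2, at 0.49, was not among them.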
